A study of Mus musculus with 6 samples.

Results

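Dab2, Wnt4 and Dlk1 are 3 genes known from the outer cortex and capsule region of the adrenal gland. They were followed in adrenal glands of BPH mice, a strain bred for high blood pressure, and of BPL mice, a strain bred for low blood pressure. RNA was hybridised to Affymetrix MG_U74Av2 arrays, which carry groups of short oligonucleotides called probe sets, with 3 arrays per strain. The age, sex and number of animals behind an array are not given in the sources used here, nor any treatment, so p-values measure only the spread between these samples, which may be technical. Members were all probe sets whose platform annotation names exactly 1 gene, that gene being Dab2, Wnt4 or Dlk1. That rule found 3 of the 8252 genes named by such probe sets, and 5 of the 12488 probe sets on the array: 3 for Dab2, 1 for Wnt4 and 1 for Dlk1. All 5 passed the filter on low values, which left 7293 probe sets, and none of the 5 lay below the intensity floor of 201.3 on any array.

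The adrenal cortex is layered beneath a fibrous capsule. Its outermost layer, the zona glomerulosa, makes aldosterone under angiotensin II and potassium, and cells of the capsule and outer layer renew the deeper cortex. Wnt4 is a secreted ligand of the outer cortex that acts through beta-catenin and is needed for zona glomerulosa identity in mice. Dab2 is a clathrin adaptor that links the tails of low density lipoprotein receptor family members to the endocytic machinery, and it marks the zona glomerulosa in mice. Dlk1 is a membrane protein with repeats like those of Notch ligands, expressed from the paternal allele. In the rat adrenal it has been found in cells below the capsule, and it is also made by chromaffin cells of the medulla, so it is not a marker of the outer cortex alone.

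The start regions of the 3 genes are shown because they differ in CG dinucleotides, the sites of DNA methylation, and because Dab2 has 2 annotated starts and 3 probe sets. Sequences are from RefSeq on build GRCm38.p6 and hold 100 bases before and 50 bases after each start, with CG dinucleotides in capitals. RefSeq describes the C57BL/6J genome, not BPH or BPL.
Dab2, upstream start, chr15:6299689-6299838, + strand: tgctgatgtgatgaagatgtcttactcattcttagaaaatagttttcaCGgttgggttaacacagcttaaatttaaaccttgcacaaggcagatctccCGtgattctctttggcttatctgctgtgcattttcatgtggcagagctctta
Dab2, downstream start, chr15:6386648-6386797, + strand: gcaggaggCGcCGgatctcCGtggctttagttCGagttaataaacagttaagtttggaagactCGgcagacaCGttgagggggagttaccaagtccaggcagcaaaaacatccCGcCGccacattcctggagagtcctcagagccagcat
Wnt4, chr4:137277535-137277684, + strand: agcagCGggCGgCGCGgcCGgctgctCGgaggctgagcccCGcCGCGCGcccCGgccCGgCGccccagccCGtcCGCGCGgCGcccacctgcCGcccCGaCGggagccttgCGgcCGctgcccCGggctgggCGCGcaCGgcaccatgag
Dlk1, chr12:109452723-109452872, + strand: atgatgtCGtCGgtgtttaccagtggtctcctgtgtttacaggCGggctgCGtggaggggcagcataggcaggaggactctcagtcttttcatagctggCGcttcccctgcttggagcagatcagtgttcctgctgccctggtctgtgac
In the full window of 300 bases, from 250 before to 50 after the start, Wnt4 held 51 CG dinucleotides and 84.3% G and C. The downstream Dab2 start held 19 and the upstream one 2, and Dlk1 held 9. The median over 32851 RefSeq windows of the same length was 7. Letters of 3 motifs were looked for on both strands of these windows: AAGGTCA, a site bound by the steroidogenic factor Nr5a1, CTTTGA, a core of TCF/LEF sites, and TATAAA. None of the 4 windows held any of them. The letters occur in 4.72%, 16.0% and 13.6% of all windows, in that order. No data on these windows were measured, and no match says nothing of the factors.

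All 5 probe sets had a higher mean in BPH than in BPL, by 1.41-fold to 1.83-fold, and 1 of them, a Dab2 probe set, passed the test. The test was limma's on log2 intensity, with a threshold of 0.05 on the p adjusted by Benjamini-Hochberg over all tested probe sets. Of all tested probe sets 2.52% passed in either direction 1.56% passed as higher in BPH and 0.96% as lower. The BPH arrays lay wholly above the BPL arrays for 4 of the 5 probe sets. These were the Wnt4 probe set and the 3 of Dab2, which are readings of 1 gene. Such a separation was found for 14.9% of all tested probe sets. A difference above 0 was found for 53.3% of them.

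**Figure D1:**
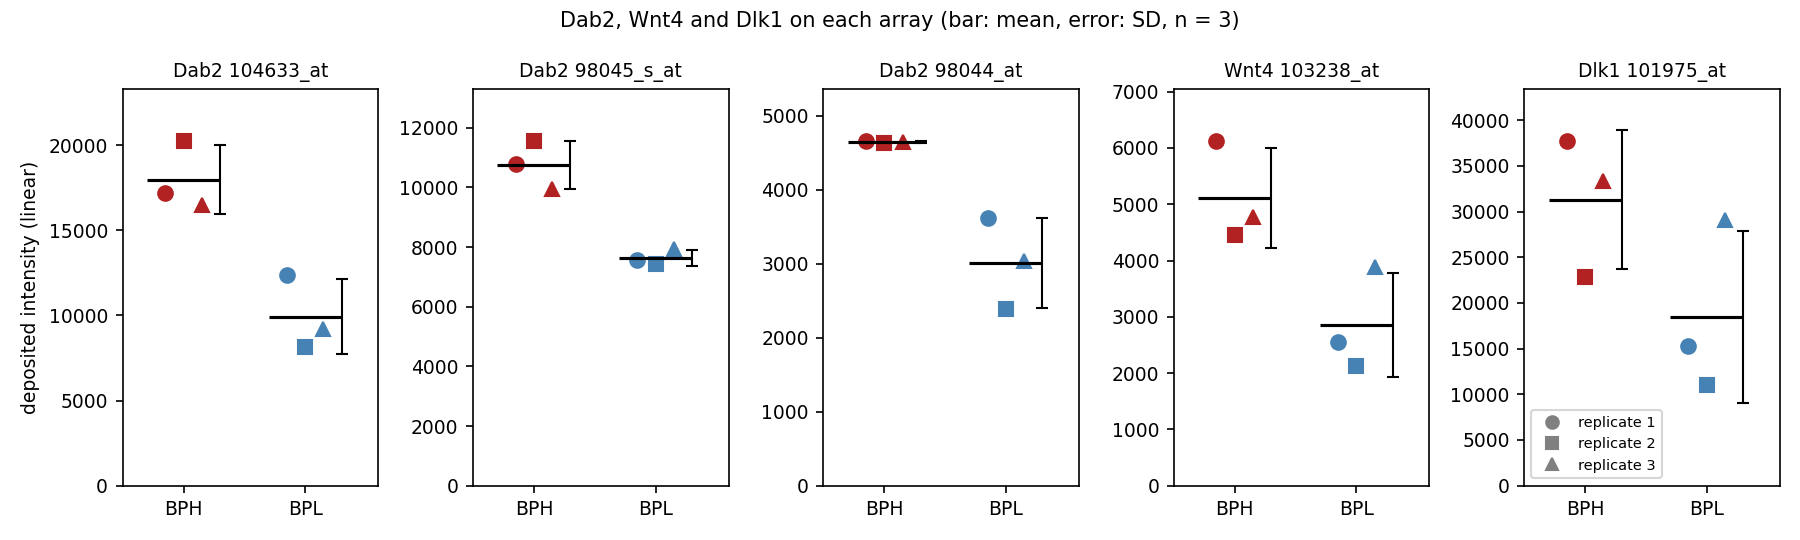
Deposited intensity (linear axis from 0) of the 5 probe sets on each array, BPH left and BPL right, with the marker shape giving the replicate number, the bar the mean and the error bar the SD (n = 3). The BPH and BPL arrays are separate for the 3 Dab2 probe sets and Wnt4, and overlap for Dlk1, where BPL 3 at 29045 lies above BPH 2 at 22874.

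The brightest Dab2 probe set was 104633_at. Its intensity was 17168, 20267 and 16500 on the 3 BPH arrays, against 12388, 8169 and 9206 on BPL 1, 2 and 3. Every BPH array was above every BPL array, with BPL 1 the nearest. The means were 17978 ± 2010 in BPH and 9921 ± 2199 in BPL (SD, n = 3 each). The log2 difference was 0.87 (SE 0.17, 95% interval 0.49 to 1.26, limma adjusted p = 0.0337), a rise of 1.83-fold. The call was lost without BPH 1, BPH 2, BPH 3, BPL 2 or BPL 3 (limma adjusted p = 0.0986, 0.143, 0.110, 0.0563 and 0.0508). It was kept without BPL 1 (adjusted p = 0.0199). With 1 array left out the difference stayed between 0.75 and 1.05.

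The annotation gives the other 2 Dab2 probe sets the same sequence record, so they are not independent of each other. On 98045_s_at, whose suffix marks probes that can match more than 1 transcript, the intensity was 10775, 11565 and 9952 in BPH, against 7573, 7416 and 7939 in BPL. The strains did not overlap, and the coefficient of variation of the 3 BPL arrays was 3.51%. The log2 difference was 0.49 (SE 0.11, 95% interval 0.24 to 0.75, limma adjusted p = 0.0617). On 98044_at the intensity was 4662, 4638 and 4647 in BPH, against 3613, 2390 and 3032 in BPL. The BPH arrays were nearly equal and all above BPL, of which BPL 2 was the lowest. The log2 difference was 0.65 (SE 0.16, 95% interval 0.28 to 1.02, limma adjusted p = 0.0775), so neither of these probe sets passed the test.

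The 3 Dab2 probe sets pointed the same way but differed in size. The log2 ratio of 104633_at over 98045_s_at was 0.67, 0.81 and 0.73 on the BPH arrays, against 0.71, 0.14 and 0.21 on BPL 1, 2 and 3. The ratio of BPL 1 thus lay within the BPH range, and the strains differed by 0.38 in an exact permutation test (two-sided p = 0.20, adjusted p = 1 over 10 pairs of probe sets). With 3 arrays against 3 this test cannot go below 0.1.

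Wnt4, the ligand, was measured by 103238_at. Its intensity was 6129, 4454 and 4773 in BPH, against 2560, 2122 and 3886 in BPL. The strains did not overlap, but BPL 3 came close to BPH 2. The means were 5119 ± 889 in BPH and 2856 ± 918 in BPL (SD, n = 3 each). The log2 difference was 0.88 (SE 0.23, 95% interval 0.36 to 1.39, limma adjusted p = 0.0831), as large as that of the Dab2 probe set 104633_at but with a wider spread. Without BPL 3 it was 1.12 (adjusted p = 0.0180), past the threshold. Leaving out any other single array gave no call (limma adjusted p between 0.160 and 0.222), and without BPL 2 the difference was 0.68. Leaving out BPL 3 also raised the count of all called probe sets from 184 to 352, so passing there is not particular to Wnt4.

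Dlk1, the Notch-ligand-like protein, was measured by 101975_at. Its intensity was 37753, 22874 and 33304 in BPH, against 15308, 11056 and 29045 in BPL. The strains overlapped, since BPL 3 lay above BPH 2. The means were 31310 ± 7637 in BPH and 18470 ± 9402 in BPL (SD, n = 3 each), and the spread within BPL was 50.9% of its mean. The log2 difference was 0.85 (SE 0.33, 95% interval 0.11 to 1.59, limma adjusted p = 0.204). Without BPL 3 it was 1.24 (adjusted p = 0.0294), and without BPL 2 it was 0.54. Leaving out any single array other than BPL 3 gave no call (limma adjusted p between 0.254 and 0.423).

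**Figure D2:**
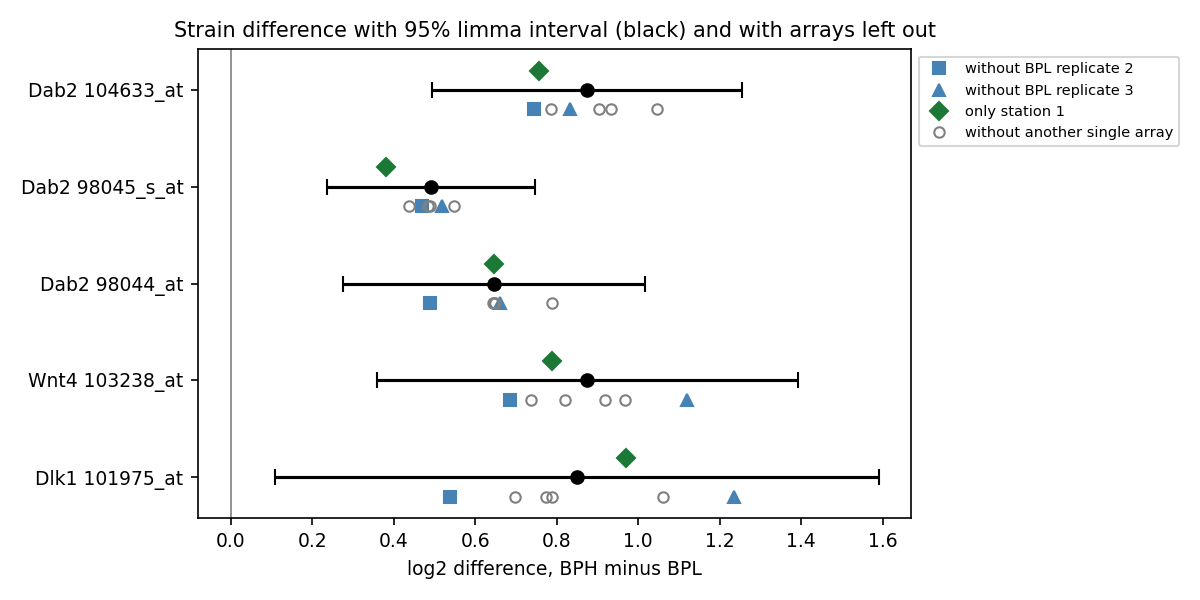
Log2 difference, BPH minus BPL, of the 5 probe sets, with the limma estimate over 6 arrays and its 95% interval in black, estimates with 1 array left out (blue for BPL 2 and BPL 3, open grey for the others) and the estimate from fluidics station 1 alone (green). Wnt4 and Dlk1 move furthest when BPL 2 (0.68 and 0.54) or BPL 3 (1.12 and 1.24) is left out, and all estimates stay above 0.

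The arrays were washed on 2 fluidics stations. BPH 1 and BPH 2 ran on station 2, while BPH 3 and all BPL arrays ran on station 1, so within station 1 the comparison is BPH 3 alone against the BPL arrays. There the log2 differences were 0.76, 0.38 and 0.65 for the Dab2 probe sets 104633_at, 98045_s_at and 98044_at, 0.79 for Wnt4 and 0.97 for Dlk1. The lone BPH array is taken to vary like the BPL arrays, and none passed (limma adjusted p between 0.603 and 0.762). With the station as a block the values were the same and none passed (adjusted p between 0.417 and 0.620).

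Array patterns differed among the probe sets, also among those of Dab2. Within BPL, Wnt4 and Dlk1 shared an order, highest on BPL 3 and lowest on BPL 2, and the Dab2 probe set 98045_s_at had that order too. The Dab2 probe sets 104633_at and 98044_at were highest on BPL 1. Within BPH, Wnt4 and Dlk1 were highest on BPH 1 and lowest on BPH 2, the array on which Dab2 104633_at was highest. After each probe set was centred on its own mean log2, Wnt4 and Dlk1 differed by a root mean square of 0.20 over the 6 arrays. Dab2 104633_at lay 0.37 from Wnt4 and 0.53 from Dlk1.

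By the same measure the profile nearest to Dab2 104633_at was that of Ptch1, the receptor of hedgehog ligands, at 0.08. Tia1, an RNA-binding protein, and Clk4, a kinase of splicing factors, followed at 0.09 and 0.11. The median distance of all tested probe sets from Dab2 was 0.51. Ptch1 104030_at had an intensity of 4136, 5642 and 4275 in BPH, against 3255, 2182 and 2660 in BPL, with no overlap. Its log2 difference was 0.80 (limma adjusted p = 0.0671), and the other Ptch1 probe set, 104031_at, had a difference of -0.00.

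Nearest to Wnt4 were Kdm3a, a histone demethylase, at 0.09, Slc27a3, a fatty acid transport family member, at 0.09, and Kcnk2, a potassium channel, at 0.11. Nearest to Dlk1 were Pde6d at 0.10, Th, the tyrosine hydroxylase of chromaffin cells, at 0.15, and B3gnt2, a glycosyltransferase, at 0.16. The median distance of all tested probe sets was 0.56 from Wnt4 and 0.65 from Dlk1. Since nearness of profile fixes the strain difference too, that difference is a description here and no support. It was 0.98 for Clk4 (limma adjusted p = 0.0280, and 0.0623, 0.118 and 0.127 without BPH 1, BPH 2 or BPH 3). Profiles over 6 arrays share the strain difference and the array to array variation, and likeness says nothing of shared control.

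**Figure D3:**
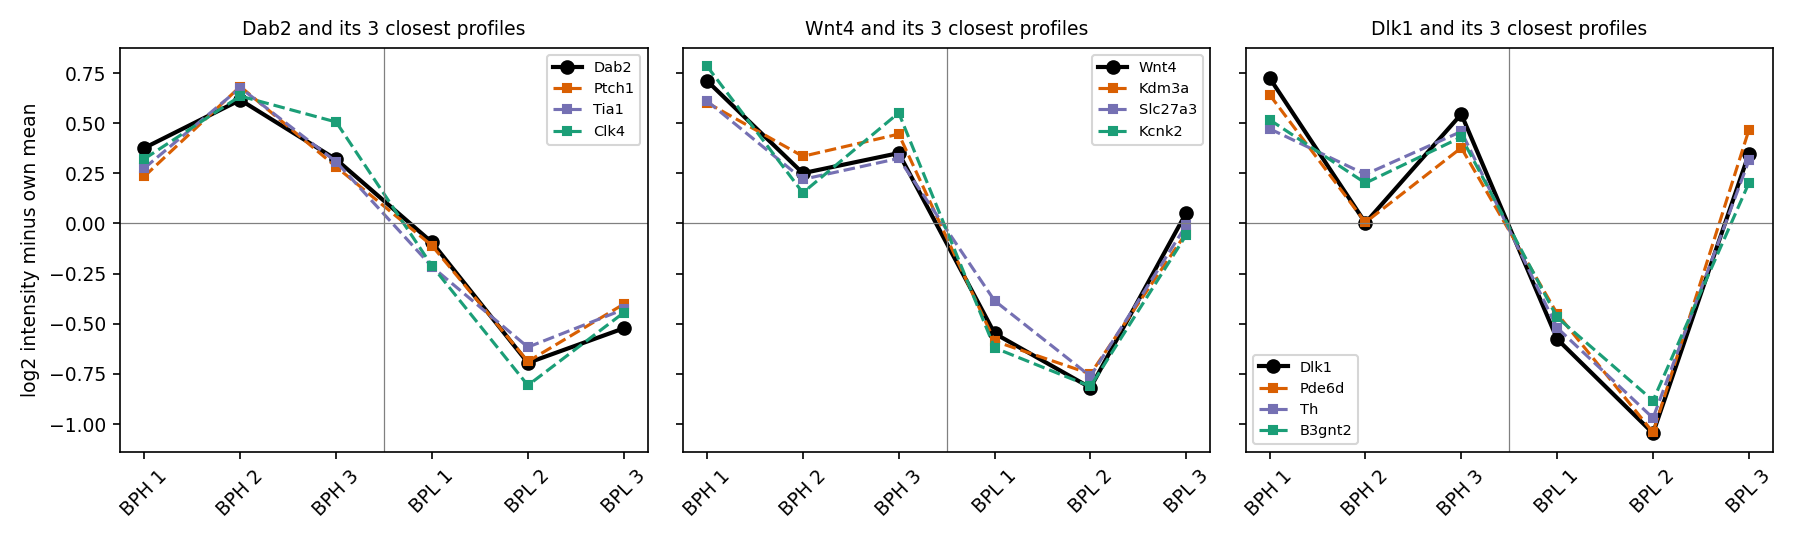
Log2 intensity minus its own mean on the 6 arrays for Dab2 104633_at, Wnt4 and Dlk1 (black) and the 3 genes with the nearest profile to each (colours). The Wnt4 and Dlk1 panels rise again on BPL 3, while the Dab2 panel stays low there.

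Th intensity was 25099, 21439 and 24862 in BPH, against 12618, 9236 and 22493 in BPL. Its low and high BPL arrays were those of Dlk1, which follows from its choice as a near profile and is no support. Of 13 listed medulla markers 8 were tested, and the log2 difference was above 0 in 8 of 8, as it was in 54.8% of the 5555 tested genes. Their median was 0.69, against 0.04 over all tested genes. None of the 8 was called, and 4 had an unadjusted p under 0.05 in limma, as 19.3% of all tested genes and of all tested probe sets did. Of the 3 brightest, the granins Chgb and Chga had log2 differences of 0.19 and 0.69 (adjusted p = 0.631 and 0.206), and Pnmt, which makes adrenaline, 0.98 (adjusted p = 0.0729). Genes were represented by their brightest tested probe set, and 2.43% of them were called in either direction, 1.53% as higher in BPH and 0.9% as lower. The summed intensity of the 9 medulla markers on the array ran from 244936 to 305952 in BPH and from 133516 to 272332 in BPL, with BPL 2 lowest and BPL 3 highest in BPL. Relative to the mean log2 of the medulla markers of the same array, Dlk1 differed by 0.27 and Wnt4 by 0.30, against 0.85 and 0.88 before. That marker mean was itself higher in BPH by 0.58. The difference of any probe set falls by 0.58 on this scale, whatever its link to the medulla. In an exact permutation test (two-sided, n = 3 per strain) p was 0.1 for Dlk1, the smallest possible, and 0.20 for Wnt4. After adjustment over 10 such comparisons these were 0.20 and 0.286. The Dab2 probe sets 104633_at, 98045_s_at and 98044_at differed by 0.30, -0.08 and 0.07 on this scale, with overlapping strains (exact permutation p = 0.7, 0.9 and 0.9). The part of medulla RNA in the differences of the 3 genes was not tested, and in whole glands fewer cells of a type and less RNA per cell cannot be told apart.

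None of the tested markers of the steroid-producing cortex was called. The sum of the 6 such genes on the array was 440073 to 521413 in BPH and 427865 to 501490 in BPL, and the median log2 difference was 0.05 with 0 of 6 called (1 at an unadjusted p under 0.05, against 19.3% of all tested genes). Star, which carries cholesterol into mitochondria, had a log2 difference of -0.01, Cyp21a1, the steroid 21-hydroxylase, 0.06, and Hsd3b1, a 3-beta-hydroxysteroid dehydrogenase, 0.03. Relative to the mean of these markers, itself higher in BPH by 0.13, the differences were 0.74, 0.36 and 0.52 for the Dab2 probe sets. They were 0.74 for Wnt4 and 0.72 for Dlk1. The strains stayed apart for Dab2 and Wnt4 and overlapped for Dlk1 (exact permutation p = 0.1 and 0.20, two-sided, adjusted p = 0.20 and 0.286). Of the inner cortex markers 0 of 5 tested were called, with 0 at an unadjusted p under 0.05, and the median was 0.17. Fdx1, the electron donor of mitochondrial steroid enzymes, differed by -0.03, Scarb1, the receptor for high density lipoprotein, by 0.17 and the transporter Abcb1b by 0.21.

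Other outer cortex markers were mixed. Of 8 listed, 4 were on the array and tested. Hsd3b6, an isoform of the zona glomerulosa, rose: it had 4711, 3456 and 3277 in BPH, against 1389, 1184 and 2228 in BPL, a log2 difference of 1.29 (SE 0.25, limma adjusted p = 0.0342). The call was lost without BPH 1, BPH 2, BPH 3, BPL 1 or BPL 2 (adjusted p between 0.0684 and 0.125). Its probe set belongs to a gene family with near-identical members and can detect Hsd3b1 as well. Vsnl1, a calcium sensor, had 5434, 5778 and 5204 in BPH, against 3830, 1809 and 5366 in BPL, and did not pass (0.71, adjusted p = 0.283). Kcnk3, a potassium channel, and Shh, the hedgehog ligand of the outer cortex, had differences of -0.18 and -0.46 and did not pass either. The median of the 4 was 0.27, and -0.17 without the 2 arrays with most skeletal muscle RNA. Cyp11b2, the aldosterone synthase, and Agtr1a and Agtr1b, the angiotensin receptors, were not analysed here.

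Capsule and fibroblast markers were called in 0 of 12 tested (3 at an unadjusted p under 0.05, against 19.3% of all tested genes), with a median of 0.08. Their summed intensity was 77313 to 81014 in BPH and 63440 to 67876 in BPL, with no overlap. Without Dcn, the brightest of the list, the sum was 38018, 46596 and 42206 in BPH, against 40308, 43283 and 39161 in BPL. The strains then overlapped, so Dcn carried the separation of the sum. By log2 difference the 12 ran from -0.21 to 0.80, with 7 above 0 and Ptch1 the highest. That was on Ptch1 104030_at, while the other Ptch1 probe set, 104031_at, had -0.002. Dcn, a matrix proteoglycan, had 39295, 34418 and 35665 in BPH, against 27568, 24532 and 24279 in BPL, a log2 difference of 0.52 (adjusted p = 0.0612). The collagen genes Col1a2 and Col1a1 had differences of -0.20 and -0.17. Gli1 and Rspo1, defining genes of capsule cells, did not pass the filter and were below the floor on 4 and 5 of the 6 arrays. Gli1 was above it only on BPH 1 and BPH 3 (209 and 377), and Rspo1 only on BPL 3 (258).

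**Figure D4:**
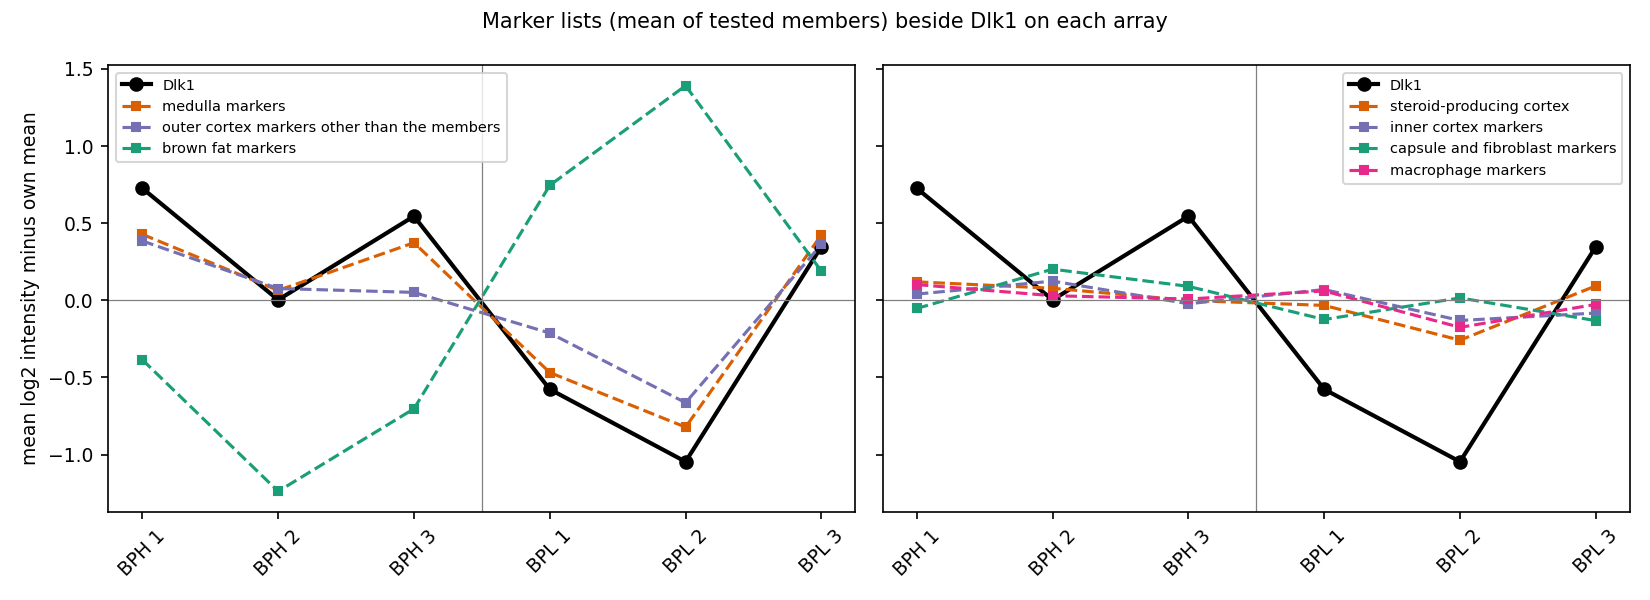
Mean log2 intensity of the tested members of marker lists minus its own mean on the 6 arrays, beside Dlk1 (black). Medulla and other outer cortex markers dip on BPL 1 and BPL 2 with Dlk1, brown fat markers are high there, and the lists on the right stay within a narrow band.

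Fat and muscle transcripts varied between arrays. Of 5 tested brown fat markers 1 was called, against 2.43% of all tested genes, and the median log2 difference was -1.47 with 0 of 5 above 0. Ucp1, the uncoupling protein of brown fat, fell (-2.68, adjusted p = 0.0137, and 0.0594 and 0.0681 without BPH 2 or BPH 3). Cidea, a lipid droplet protein, had -1.25 and Cox8b, a cytochrome oxidase subunit, -1.47, and neither passed (adjusted p = 0.110 and 0.0564). The summed intensity of the brown fat list was 37233 to 64585 in BPH and 101098 to 293768 in BPL, highest on BPL 2, the array on which 98045_s_at, 98044_at and 104633_at of Dab2, Wnt4 and Dlk1 were all lowest. Of the 6 tested general fat markers 1 was called, and the median was -0.17. Lipe, the hormone-sensitive lipase, fell (-1.25, adjusted p = 0.0376, and 0.0682, 0.143 and 0.154 without BPH 1, BPH 2 or BPH 3). The hormone gene Adipoq had -0.09 and the lipase Lpl -0.21. Retn, another fat hormone, was chosen after its values were seen and had 0.58 (adjusted p = 0.112). Skeletal muscle markers were high on BPH 1 and BPL 2, with summed intensities of 163104 and 185180, while the other BPH arrays had 10188 and 25149 and the other BPL arrays 11993 and 13489. None of the 10 tested was called, and 0 had an unadjusted p under 0.05. Acta1, Pvalb and Myh4, muscle actin, a calcium buffer and a myosin, had differences of 1.09, 0.25 and 1.34, which turned to -0.19, -0.57 and -0.50 without BPH 1. Without those 2 arrays the differences were 0.78, 0.47 and 0.49 for the Dab2 probe sets in the order above, 0.55 for Wnt4 and 0.39 for Dlk1, and none passed (adjusted p between 0.0923 and 0.619). The part of fat or muscle RNA in the members' differences was not tested.

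Kidney and macrophages also make Dab2. Kidney marker sums were 3364 to 3574 in BPH and 3800 to 4283 in BPL, a sum over 10 genes of which 9 did not pass the filter. The 1 tested, Lrp2, an endocytic receptor, had a log2 difference of -0.28 (adjusted p = 0.679). Umod and Miox, defining genes of kidney tubules, were below the floor on all 6 arrays. Lrp2 and the untested Slc34a1, Slc12a1 and Cubn were above it on all 6. Intensities were 462 to 861 for Slc34a1, 338 to 631 for Slc12a1 and 221 to 1096 for Cubn. The other kidney markers were below the floor on some arrays. The part of kidney RNA was not tested. Macrophage marker sums overlapped, at 21755 to 22998 in BPH and 19075 to 22759 in BPL, with 0 of 8 tested called (4 at an unadjusted p under 0.05, against 19.3% of all tested genes) and a median of 0.05. Cd14, C1qa and Ctss, a receptor, a complement subunit and a protease, had -0.16, 0.07 and 0.03. These are the 3 brightest, and the list was not flat: the 8 differences ran from -0.80 to 0.72, with 5 above 0. Endothelial and smooth muscle markers were called in 0 of 8 and 0 of 3 tested, with 3 and 2 at an unadjusted p under 0.05 and medians of -0.07 and 0.09, against the same 19.3%. The endothelial genes Eng, Cdh5 and Kdr had -0.07, -0.08 and 0.10, and the contractile genes Tagln, Acta2 and Myh11 had 0.44, 0.09 and -1.04 (adjusted p = 0.0947, 0.876 and 0.0918).

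No tested gene of the rest of the Wnt pathway was called. Of the other Wnt ligands 13 were on the array and 3 passed the filter, with differences of -0.21 for Wnt1, -0.15 for Wnt10a and -0.34 for Wnt5a, none called. The summed intensity of the 13 was 5843 to 6490 in BPH and 6518 to 8498 in BPL, and Wnt7a and Wnt11 lay below the floor on all arrays. Of receptors and secreted modulators 0 of 12 tested were called (2 at an unadjusted p under 0.05, against 19.3% of all tested genes), with a median of -0.13. Their summed intensity was 34982 to 37077 in BPH and 42492 to 44804 in BPL, with no overlap. Without Fzd4 it was 23733, 25256 and 24992 in BPH, against 27262, 22525 and 29390 in BPL, which overlapped. Fzd4, a Wnt receptor, had a difference of -0.58 (adjusted p = 0.111), the co-receptor Lrp6 of -0.08 and the Wnt export protein Wls of 0.15. Of intracellular and target genes 0 of 21 were called (1 at an unadjusted p under 0.05), with a median of -0.01. Ctnnb1, which encodes beta-catenin, differed by 0.23 and the kinases Gsk3a and Csnk1a1 by -0.04 and 0.20. Axin2 and Lef1, target and effector of the pathway that were chosen after their values were seen, had -0.45 and 0.58 (adjusted p = 0.426 and 0.544). Lef1 had 2957, 2887 and 2624 in BPH, against 3268, 723 and 2830 in BPL, and without BPL 2 its difference was -0.11.

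Genes related to Dlk1 by family or imprinting did not pass the test. Of the Notch pathway 0 of 14 tested were called (2 at an unadjusted p under 0.05, against 19.3% of all tested genes), with a median of 0.01. Hes1, a target of Notch signalling, differed by 0.34 (adjusted p = 0.214), the glycosyltransferase Rfng by -0.01 and the gamma-secretase subunit Psen2 by -0.27. Of 17 tested imprinted genes 0 were called (7 at an unadjusted p under 0.05, against 19.3% of all tested genes), with a positive difference in 10 and a median of 0.21. Gnas, the stimulatory G protein subunit, differed by -0.28, Cdkn1c, a cell cycle inhibitor, by -0.45 and Dcn by 0.52. Meg3, the maternally expressed RNA of the imprinted cluster that holds Dlk1, was named after its values were seen. It had 12678, 12242 and 14316 in BPH, against 13513, 10384 and 19524 in BPL on 160172_at, a log2 difference of -0.10. On 160173_at the difference was -0.63 (adjusted p = 0.151), and within station 1 160172_at had 0.033.

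Partners of Dab2 in endocytosis did not pass either: 0 of 23 tested were called (3 at an unadjusted p under 0.05, against 19.3% of all tested genes), with a median of -0.04. The clathrin heavy chain Cltc, the adaptor subunit Ap2m1 and the membrane-bending Epn1 had differences of -0.07, -0.04 and -0.01. Of the hedgehog pathway 0 of 5 tested were called (1 at an unadjusted p under 0.05), with a median of -0.05. Within it Ptch1 at 0.80 on 104030_at and Shh at -0.46 stood at opposite ends, and Smo, the signal transducer, had 0.21. The other Ptch1 probe set, 104031_at, had -0.002.

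**Figure D5:**
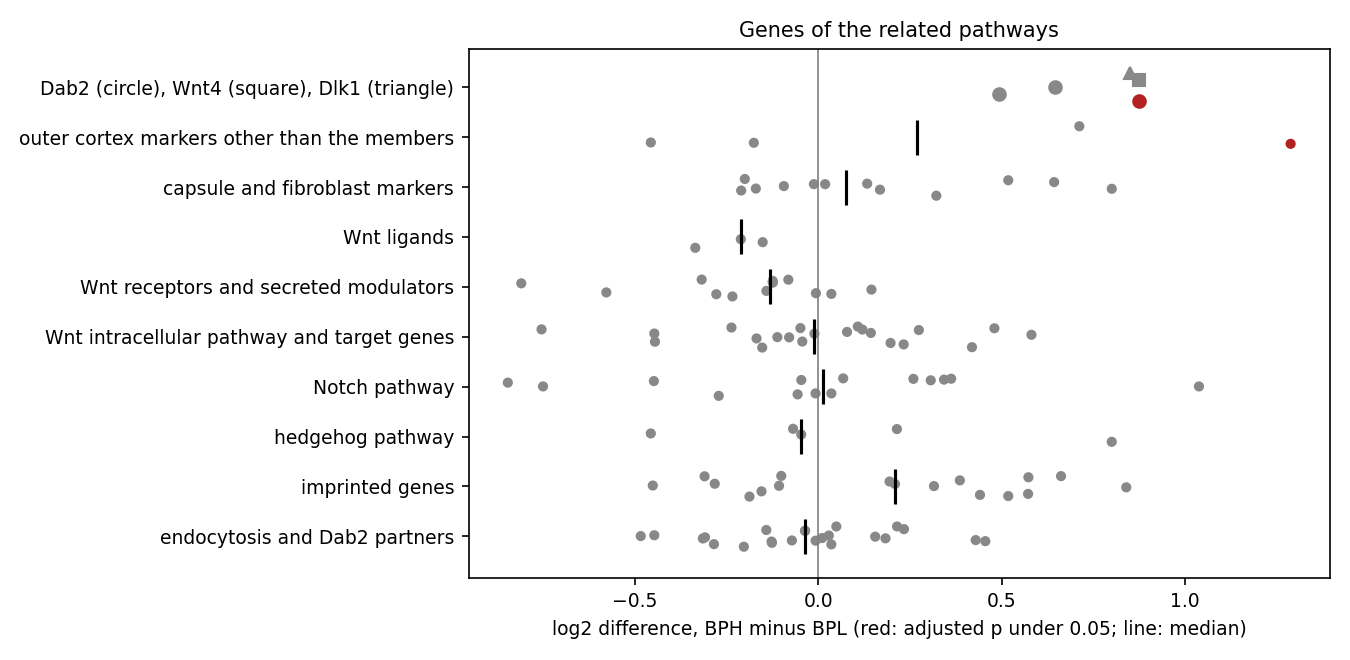
Log2 difference, BPH minus BPL, of tested genes in lists related to Dab2, Wnt4 and Dlk1, 1 point per gene, with the list median as a line and genes with a limma adjusted p under 0.05 in red. The 5 member probe sets on top lie between 0.49 and 0.88, and the medians of the lists drawn lie between -0.21 and 0.27. Medulla markers, with a median of 0.69, are not drawn.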

How the data were processed

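Adrenal RNA of 3 BPH and 3 BPL samples was measured on 6 arrays of 1 chip lot. The values are intensities on a linear scale, as deposited by the authors, with a value for every probe set on every array. Their software was not given in the sources used here. Per array, the mean after trimming 2% at each end was 2501.3 to 2501.5 on all arrays, so the deposited values had been scaled already and were not scaled again. The median intensity was 1003.5 to 1114.7, and log2 values correlated with r from 0.924 to 0.962 within and 0.894 to 0.938 between strains. The array run files hold no measurement, and only the fluidics station and chip lot were used (unit other, per the file headers).

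Values under the 20th percentile (201.3) were set to it before log2, and 66 control probe sets and probe sets with a mean log2 under that of the 40th percentile (668.1) were left out. Differences were fitted in limma 3.58.1 (R 4.3.3; lmFit, then eBayes with a trend on intensity), two-sided, adjusted over 7293 probe sets, and tested on simulated data. Means and SDs are of deposited intensities. Precision is limited by the number of arrays. Names came from the platform annotation (1 gene for 10855 probe sets, several for 396, none for 1237), with 10839 updated through RefSeq.

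The members, the 19 gene lists and the tests were chosen with earlier results of these data known, and some lists share genes. List genes named are those called and the 3 of highest mean intensity, plus for each member the 3 genes with the nearest centred profile. Defining markers of other cell types (Gli1, Rspo1, Umod, Miox) were also to be named. Wnt7a, Wnt11, Slc34a1, Slc12a1, Cubn and the genes marked so were chosen after their values were seen. Alternatives covered scaling, floor, filter, variance model, blocks, gene summary and left-out arrays. The comparison with marker means was added after the data were seen.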

Additional observations from a re-analysis of the deposited data

How the results depend on the processing

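All 5 probe sets kept a positive difference under every alternative tried. The Dab2 probe set 104633_at (0.87 over all arrays) lost its call with no filter (0.87, adjusted p = 0.188), without the intensity trend (0.87, adjusted p = 0.0891), with fluidics station as block (0.76, adjusted p = 0.417), within station 1 (0.76, adjusted p = 0.603) and without the 2 arrays with most skeletal muscle RNA (0.78, adjusted p = 0.0923). It kept the call under quantile normalization, median scaling, the 10th percentile floor, the offset of 200, the 60th percentile filter, robust estimation and 1 probe set per gene. With the 60th percentile filter, which tests fewer probe sets, the Dab2 probe set 98045_s_at passed (0.49, adjusted p = 0.0478). With 1 array left out the differences ran from 0.75 to 1.05 for 104633_at, 0.44 to 0.55 for 98045_s_at, 0.49 to 0.79 for 98044_at, 0.68 to 1.12 for Wnt4 and 0.54 to 1.24 for Dlk1. Replicate numbers are shared by the strains, but arrays of the same number did not deviate together (r = -0.22, -0.08 and 0.01), and 0 of 6 arrays correlated best with its own number. With the replicate block 124 probe sets were called, 46 of them lower, and 104633_at had 0.87 (adjusted p = 0.0595).

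The count of called probe sets, 184 with 114 higher and 70 lower in BPH, was 52 with no filter (32 higher, 20 lower), 83 without the trend (59 and 24), 18 with the station as a block (10 and 8) and 7 within station 1 (4 and 3). With 1 array left out it ran from 41 without BPH 2 to 352 without BPL 3 (27 to 195 higher, 14 to 157 lower). It was 83 without BPH 1, 48 without BPH 3 and 89 without BPL 1. The cause was not tested, beyond fewer arrays or more probe sets being in those fits.

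Of 73 other named probe sets that did not pass, 27 changed sign of the log2 difference under at least 1 alternative, none past the threshold. Among the 1369 values of these 73 under alternatives, 27 kept their sign and did pass the threshold. Under quantile normalization, the values were Fdx1 0.19, Star 0.20, Ctss -0.011, Gsk3a 0.032, Epn1 0.032, Ptch1 104031_at 0.016. Under median scaling, the values were Star 0.012, Rfng 0.018, Epn1 0.018, Ptch1 104031_at 0.022. With fluidics station as block, the values were Cyp21a1 -0.079, Hsd3b1 -0.12, Acta1 -1.10, Pvalb -1.01, Myh4 -1.99, Ctss -0.23, Wnt1 0.016, Ptch1 104031_at 0.29, Meg3 160172_at 0.033, Gdnf 0.20. Within station 1, the values were Cyp21a1 -0.079, Hsd3b1 -0.12, Acta1 -1.10, Pvalb -1.01, Ctss -0.23, Wnt1 0.016, Ptch1 104031_at 0.29, Meg3 160172_at 0.033, Gdnf 0.20. Without the 2 muscle-rich arrays, the values were Cyp21a1 -0.17, Hsd3b1 -0.050, Chgb -0.12, Adipoq 0.091, C1qa -0.049, Ctss -0.23, Cdh5 0.022, Kdr -0.0030, Rfng 0.0096, Epn1 0.038, Ptch1 104031_at 0.074, Lef1 -0.14. With 1 array left out the ranges were Acta1 -0.60 to 3.21, Acta2 -0.097 to 0.31, Adipoq -0.28 to 0.15, Ap2m1 -0.22 to 0.097, C1qa -0.094 to 0.16, Cdh5 -0.21 to 0.11, Chgb -0.017 to 0.32, Ctss -0.13 to 0.16, Cyp21a1 -0.074 to 0.16, Epn1 -0.053 to 0.031, Fdx1 -0.11 to 0.077, Gsk3a -0.15 to 0.028, Hsd3b1 -0.033 to 0.11, Kcnk3 -0.46 to 0.077, Lef1 -0.11 to 0.98, Lpl -0.39 to 0.013, Lrp2 -0.54 to 0.059, Lrp6 -0.28 to 0.030, Meg3 160172_at -0.32 to 0.14, Myh4 -0.50 to 3.21, Ptch1 104031_at -0.15 to 0.075, Pvalb -0.57 to 0.92, Rfng -0.080 to 0.040, Star -0.060 to 0.047. Of 360 list medians under alternatives 335 moved by less than the spread between arrays. The cause was not tested.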

Other observations

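Genes next to Dab2, Wnt4 and Dlk1 on their chromosomes were looked up in the RefSeq order, taking the 3 nearest protein-coding genes with a tested probe set on each side. None of these 18 genes was called, against 2.43% of all tested genes in either direction, so few or no calls would be found in any 18 genes. Beside Dab2 on chromosome 15, differences ran from -0.36 for Gdnf, a neurotrophic factor, to 0.35 for AW549877. Beside Wnt4 on chromosome 4, Cdc42, the nearest tested gene and a small GTPase, had a difference of 0.13, Usp48, a deubiquitinase, 0.64 (limma adjusted p = 0.0763), and Hspg2, the matrix protein perlecan, -0.43. Beside Dlk1 on chromosome 12, Wars, a tRNA synthetase, had 3851, 4123 and 4016 in BPH, against 5765, 5671 and 5517 in BPL, a log2 difference of -0.50 (limma adjusted p = 0.0580). Hsp90aa1, a chaperone, and Yy1, a transcription factor, had 0.41 and 0.49.

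Peg10 and Peg3, imprinted genes chosen after their values were seen, stood near the members without passing. The 17 tested imprinted genes ran from -0.45 to 0.84, with 10 above 0. Peg10 had 1831, 1562 and 1855 in BPH, against 903, 770 and 1332 in BPL, a log2 difference of 0.84 (limma adjusted p = 0.103). Peg3, on the brightest tested of its 3 probe sets, differed by 0.66 (adjusted p = 0.0776). Both were lowest on BPL 2 and highest in BPL on BPL 3, as Wnt4 and Dlk1 were. The mean log2 of the medulla, other outer cortex and steroid-producing cortex markers had that order too, so it is not particular to these genes.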
